A study of Mus musculus with 17 samples.

Results

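The 8 genes described here encode the enzymes that write, copy and remove methyl groups on cytosine in DNA: Dnmt1, Dnmt3a, Dnmt3b, Uhrf1, Tet1, Tet2, Tet3 and Tdg. They were chosen by name for their roles, as 8 of the 24594 genes in the count tables, and 2 of them, Dnmt3a and Tet2, were themselves targeted in the study. Their RNA was measured in 17 RNA-seq libraries of mouse splenic CD8 T cells with the genotype CD8+Thy1.1+. Their genetic modification was Rosa KO (the control here, with 5 libraries), Asxl1 KO, Dnmt3a KO or Tet2 KO (4 libraries each). Rosa is a locus commonly used as a neutral target, and Asxl1 encodes a subunit of the Polycomb deubiquitinase. The labels give no age, treatment, way of making the knockout or origin of the replicates, so the tests below weigh differences against the spread among libraries, and that spread may be technical.

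A methyl group on the cytosine of a CpG dinucleotide is set down on unmarked DNA by the de novo methyltransferases DNMT3A and DNMT3B. After each round of replication UHRF1 binds the half-methylated daughter DNA and recruits DNMT1, which copies the mark to the new strand. The TET enzymes oxidise 5-methylcytosine, and the glycosylase TDG cuts out the most oxidised forms so that repair restores a plain cytosine. In CD8 T cells, DNMT3A is known for silencing genes of naive and memory cells as effector cells form and become exhausted, and TET2 for restraining the formation of memory cells.

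By their numbers in the labels, the libraries form 3 runs with gaps between them, which nothing in the labels calls batches. Run 1, with the lowest numbers, held Rosa KO 1, Asxl1 KO 1 and Dnmt3a KO 1 and 2. Run 2 held Asxl1 KO 2, Dnmt3a KO 3 and 4 and Tet2 KO 1 and 2, with no Rosa KO library. Run 3 held Rosa KO 2 to 5, Asxl1 KO 3 and 4 and Tet2 KO 3 and 4, with no Dnmt3a KO library. Total counts lay between 6625833 and 40701203 per library (median 21642477). CD8 T cell markers summed to between 4765 and 12430 CPM (counts scaled to a common library size), with none of the 9 at 0 in any library. The 14 B cell markers were detected too, and summed to between 1234 and 5863 CPM in Rosa KO, 1410 and 2217 in Asxl1 KO, 1396 and 4261 in Dnmt3a KO and 210.2 and 6281 in Tet2 KO. In such bulk RNA, fewer cells of a type and less RNA per cell cannot be told apart.

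All 8 genes were detected in every library, and their levels spanned a wide range. Per kilobase of exon, Dnmt1 was highest, with a mean of 34.6 ± 12.1 CPM per kilobase (SD, n = 17), and it exceeded Tet2 (10.7 ± 3.37) in 17 of 17 libraries. Uhrf1 followed at 7.39 ± 3.57, Tet3 at 4.66 ± 1.90, Dnmt3a at 4.44 ± 1.34 and Dnmt3b at 3.38 ± 1.40 CPM per kilobase. The lowest were Tdg at 2.11 ± 0.746 and Tet1 at 0.543 ± 0.440 CPM per kilobase. Between neighbours in this order, the ranges over the libraries were apart only for Dnmt1 and Tet2. Tet2 exceeded Uhrf1, Uhrf1 exceeded Tet3, Dnmt3a exceeded Dnmt3b and Dnmt3b exceeded Tdg in 13 of 17 libraries each. Tdg exceeded Tet1 in 16 of 17, while Tet3 exceeded Dnmt3a in only 7 of 17. Tet1 rested on 21 to 596 counts per library and Tdg on 56 to 381, against 1110 to 11296 for Dnmt1, so these low genes rest on the fewest counts. The length used was the union of all annotated exons, which understates the level per length of a gene whose longest isoforms are little used.

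**Figure D1:**
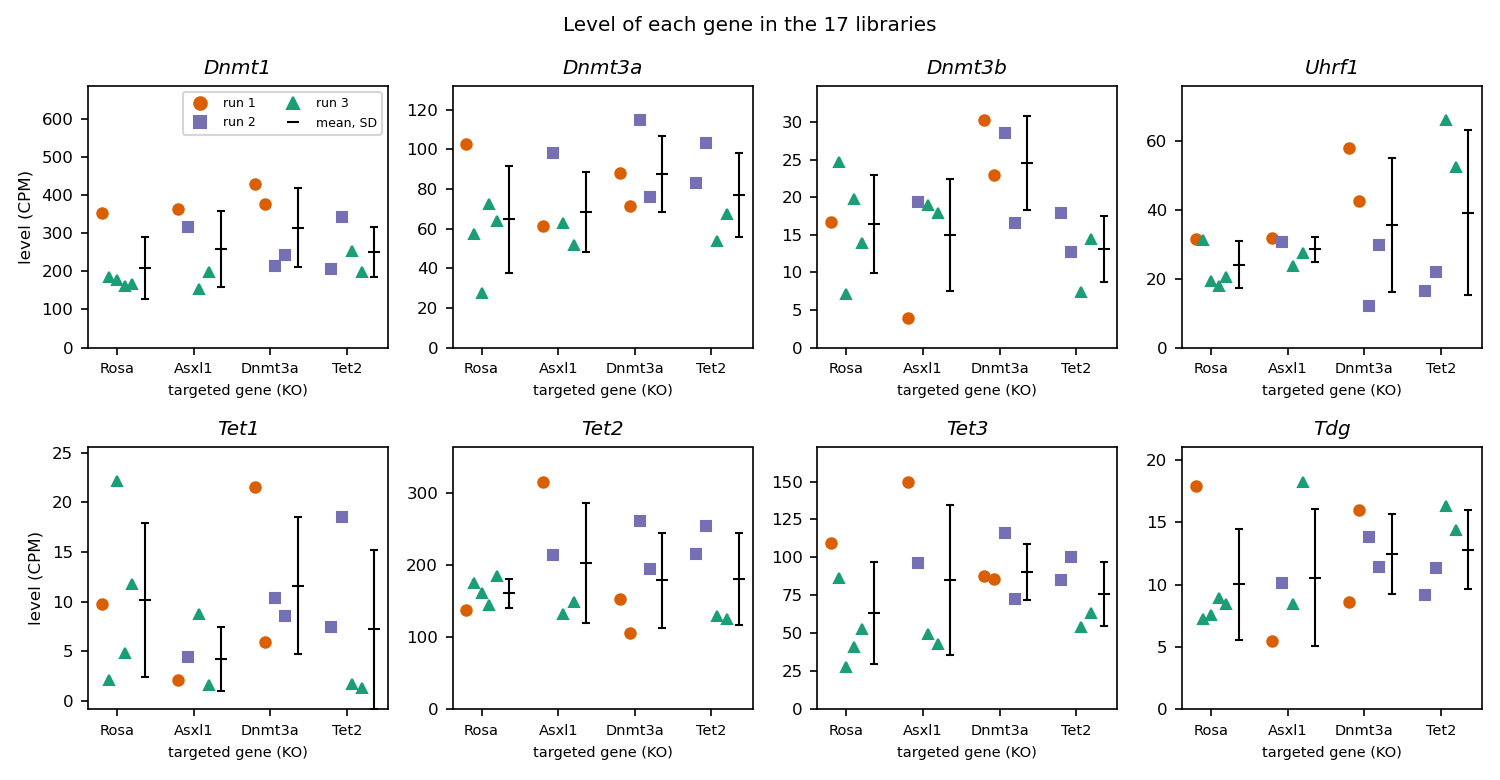
Level of each gene in CPM (vertical axes, linear, one scale per panel) in the 17 libraries by targeted gene, with the run of library numbers as colour and symbol; the black bar is the mean and SD of the group. The 4 libraries of run 1 held the highest Dnmt1 levels of the series, from 353 to 429 CPM, and the Uhrf1 levels of Tet2 KO 3 and 4 in run 3, at 66.2 and 52.5 CPM, lay above those of every Rosa KO library.

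The maintenance methyltransferase Dnmt1 (NCBI gene 13433, mm10 chromosome 9, 20907206 to 20959888, minus strand) had 353, 185, 177, 162 and 168 CPM in Rosa KO 1 to 5. It had 365, 318, 153 and 199 CPM in Asxl1 KO 1 to 4. Its levels were 429, 377, 213 and 242 CPM in Dnmt3a KO 1 to 4, and 206, 342, 254 and 198 CPM in Tet2 KO 1 to 4. In each group that run 1 holds, its libraries were the highest, and all groups overlapped. With group and run in one model over all genes (edgeR's quasi-likelihood test, Benjamini-Hochberg adjusted over 13881 genes, threshold 0.05), the log2 fold change against Rosa KO was 0.14 ± 0.17 in Asxl1 KO (SE, adjusted p = 0.756). It was 0.06 ± 0.20 in Dnmt3a KO (adjusted p = 0.972) and 0.32 ± 0.17 in Tet2 KO (adjusted p = 0.490). The 95% intervals ran from −0.21 to 0.49, from −0.35 to 0.47 and from −0.04 to 0.68, the narrowest of the 8 genes.

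Uhrf1 (gene 18140, chromosome 17, 56303337 to 56323486, plus strand), the reader that brings DNMT1 to replicated DNA, had 31.7, 31.3, 19.4, 17.9 and 20.5 CPM in Rosa KO 1 to 5. It had 32.0, 30.8, 23.9 and 27.5 CPM in Asxl1 KO 1 to 4 and 58.1, 42.7, 12.1 and 29.96 CPM in Dnmt3a KO 1 to 4. In Tet2 KO 1 to 4 it had 16.3, 21.9, 66.2 and 52.5 CPM. Tet2 KO thus fell into the 2 libraries of run 2, within or below the range of Rosa KO, and the 2 of run 3, above every Rosa KO library. Uhrf1 had the largest log2 fold change against Rosa KO of the 8 genes in Tet2 KO among those higher, 1.02 ± 0.35 (SE, 95% interval 0.31 to 1.73), but did not pass the adjustment (adjusted p = 0.173). It was 0.52 ± 0.35 in Asxl1 KO (adjusted p = 0.518) and 0.76 ± 0.41 in Dnmt3a KO (adjusted p = 0.672).

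Within run 3 alone, the comparison of Tet2 KO 3 and 4 with Rosa KO 2 to 5 called Uhrf1 higher by 1.42 ± 0.32 (SE, 95% interval 0.75 to 2.08, adjusted p = 0.0194 by edgeR). It was the 1 member of 8 called there, where 2.9% of all genes tested were called. Run 2 holds no Rosa KO library, so the other Tet2 KO libraries have no control in their own run. The 30 proliferation genes summed to 4734 and 5259 CPM in these Tet2 KO libraries of run 3, against 2420 to 2772 CPM in the Rosa KO libraries of that run, and to 2097 and 3056 CPM in Tet2 KO of run 2. With the mean of these proliferation genes as a further term over all 17 libraries, the Uhrf1 log2 fold change in Tet2 KO was −0.14 (adjusted p = 0.963). Without Tet2 KO 3 it was 0.72 (adjusted p = 0.719), and without Asxl1 KO 2 it passed at 1.20 (adjusted p = 0.0498).

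The de novo enzyme Dnmt3a (gene 13435, chromosome 12, 3801559 to 3914443, plus strand) was the target in 1 group. It had 102.5, 57.4, 27.6, 72.3 and 64.02 CPM in Rosa KO 1 to 5, and 88.0, 71.7, 114.8 and 76.2 CPM in Dnmt3a KO 1 to 4. The groups overlapped and no library labelled Dnmt3a KO was below the Rosa KO median of 64.02 CPM. Levels were 61.4, 98.1, 62.9 and 51.5 CPM in Asxl1 KO 1 to 4 and 83.1, 103, 53.9 and 67.3 CPM in Tet2 KO 1 to 4. The log2 fold change in its own knockout was −0.06 ± 0.28 (SE, 95% interval −0.65 to 0.52, adjusted p = 0.978). The labels do not say how the gene was disrupted. Counts over a whole gene do not check a knockout that leaves a transcript, so each library keeps the group of its label. An antisense gene, Dnmt3aos, lies across Dnmt3a and reached at most 1.75 CPM, and no source used here says whether the counting used strand.

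Dnmt3b (gene 13436, chromosome 2, 153649411 to 153687730, plus strand), the other de novo enzyme, had 16.7, 24.7, 7.11, 19.8 and 13.9 CPM in Rosa KO 1 to 5 and 30.3, 22.9, 28.6 and 16.5 CPM in Dnmt3a KO 1 to 4. It had 3.88, 19.4, 19.0 and 17.9 CPM in Asxl1 KO 1 to 4 and 17.9, 12.7, 7.45 and 14.5 CPM in Tet2 KO 1 to 4. The highest 3 of the 4 Dnmt3a KO libraries exceeded every library of the other groups but 1, Rosa KO 2. Against Rosa KO the log2 fold change in Dnmt3a KO was 0.65 ± 0.52 (SE, 95% interval −0.43 to 1.73, adjusted p = 0.811). Against Tet2 KO it was 1.10 ± 0.53 (95% interval 0.02 to 2.19, unadjusted p = 0.0471, adjusted p = 0.878). Within run 1 the single Asxl1 KO library was 2.78 ± 0.74 lower on the log2 scale than Dnmt3a KO 1 and 2 (adjusted p = 0.0379). That fit had 1 residual degree of freedom, and the lone library was assumed to vary like the others.

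Of the oxidases, Tet2 (gene 214133, chromosome 3, 133463677 to 133545136, minus strand) was the target in 1 group. It had 138, 176, 162, 144 and 186 CPM in Rosa KO 1 to 5 and 215, 254, 129 and 125.05 CPM in Tet2 KO 1 to 4. The libraries labelled Tet2 KO lay on both sides of the Rosa KO range, above it in run 2 and below it in run 3. The log2 fold change in its own knockout was −0.26 ± 0.23 (SE, 95% interval −0.73 to 0.21, adjusted p = 0.734). Within run 3 it was −0.39 ± 0.17 (95% interval −0.74 to −0.04, adjusted p = 0.277), with both Tet2 KO libraries under all 4 Rosa KO libraries. In that comparison the interval of Tet1 (−4.92 to −0.63) lay below 0 too, and those of Uhrf1 (0.75 to 2.08) and Dnmt1 (0.05 to 0.73) lay above 0. The share of all genes whose interval left out 0 there was not counted, and 2.9% of all genes passed the adjusted threshold. With the proliferation mean as a further term over all 17 libraries, the Tet2 log2 fold change in Tet2 KO was 0.27, and it was not called. As for Dnmt3a, counts over the whole gene do not check a knockout that leaves a transcript.

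Tet2 had 316, 215, 132.4 and 149 CPM in Asxl1 KO 1 to 4 and 153, 106, 261 and 194 CPM in Dnmt3a KO 1 to 4. Asxl1 KO exceeded Dnmt3a KO by 0.50 ± 0.23 on the log2 scale at an unadjusted p = 0.0404, which did not pass (adjusted p = 0.430). That difference stood at 1.27 ± 0.26 within run 1 (adjusted p = 0.0143, 1 residual degree of freedom), where Asxl1 KO 1 was the highest of the series, and at −0.07 ± 0.29 within run 2. Dnmt3b and Tet2 were the 2 members of 8 called within run 1 between these groups, where 9.51% of all genes tested were called. Both calls rest on the single library Asxl1 KO 1, which stood apart in other ways. It had the fewest genes with a count (12901) and the highest sum of CD8 T cell markers (12430 CPM) of the series, and its erythroid and platelet markers summed to 2977 CPM, against 466.5 to 703 CPM in the rest of run 1. That sum was led by Hba-a1, which reached 2301 CPM. The mean log2 CPM of these markers was 5.42, inside the 5.00 to 5.49 of the rest of run 1. The part of these features in the 2 calls was not tested. Asxl1, the third target, had 70.2, 146, 87.2 and 114 CPM in Asxl1 KO 1 to 4 while Rosa KO had a mean of 103 ± 32.8 CPM (SD, n = 5), for a log2 fold change of −0.13 ± 0.21 (adjusted p = 0.836).

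Tet3 (gene 194388, chromosome 6, 83362373 to 83457208, minus strand) had 109.7, 86.1, 27.7, 40.9 and 53.0 CPM in Rosa KO 1 to 5 and 149.9, 96.6, 49.8 and 43.1 CPM in Asxl1 KO 1 to 4. It had 87.7, 86.1, 116 and 72.4 CPM in Dnmt3a KO 1 to 4 and 85.0, 100.5, 54.0 and 63.1 CPM in Tet2 KO 1 to 4. In all 3 groups that include run 3, its run 3 libraries were the lowest. Log2 fold changes against Rosa KO were 0.04 ± 0.27 in Asxl1 KO, −0.22 ± 0.31 in Dnmt3a KO and 0.06 ± 0.27 in Tet2 KO (adjusted p = 0.969, 0.920 and 0.967). The antisense gene B230319C09Rik across Tet3 reached at most 6.64 CPM.

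Tet1 (gene 52463, chromosome 10, 62804570 to 62887469, minus strand), the oxidase best known from embryonic stem cells, had 9.77, 2.13, 22.2, 4.80 and 11.8 CPM in Rosa KO 1 to 5. It had 2.10, 4.40, 8.76 and 1.59 CPM in Asxl1 KO 1 to 4, 21.5, 5.87, 10.4 and 8.58 CPM in Dnmt3a KO 1 to 4 and 7.40, 18.5, 1.70 and 1.28 CPM in Tet2 KO 1 to 4. Its highest library was 17.4-fold above its lowest, the widest spread of the 8 genes, and Rosa KO alone spanned 10.4-fold. Its log2 fold changes against Rosa KO were −1.46 ± 0.76 in Asxl1 KO (adjusted p = 0.355), −0.39 ± 0.95 in Dnmt3a KO (0.960) and −1.32 ± 0.98 in Tet2 KO (0.664). The interval in Tet2 KO ran from −3.34 to 0.69, so it reached from a large fall of Tet1 to a modest rise.

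The glycosylase Tdg (gene 21665, chromosome 10, 82629814 to 82650799, plus strand) had 17.9, 7.19, 7.52, 8.93 and 8.46 CPM in Rosa KO 1 to 5 and 5.43, 10.1, 8.40 and 18.3 CPM in Asxl1 KO 1 to 4. It had 8.59, 16.02, 13.8 and 11.4 CPM in Dnmt3a KO 1 to 4 and 9.15, 11.3, 16.3 and 14.4 CPM in Tet2 KO 1 to 4. The 4 Tet2 KO libraries lay above the 4 Rosa KO libraries of run 3 and below Rosa KO 1. Its log2 fold changes against Rosa KO were 0.14 ± 0.46 in Asxl1 KO, 0.41 ± 0.52 in Dnmt3a KO and 0.46 ± 0.48 in Tet2 KO (adjusted p = 0.930, 0.907 and 0.794). The last bases of Tdg overlap Glt8d2 on the other strand, which reached 9.93 CPM.

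**Figure D2:**
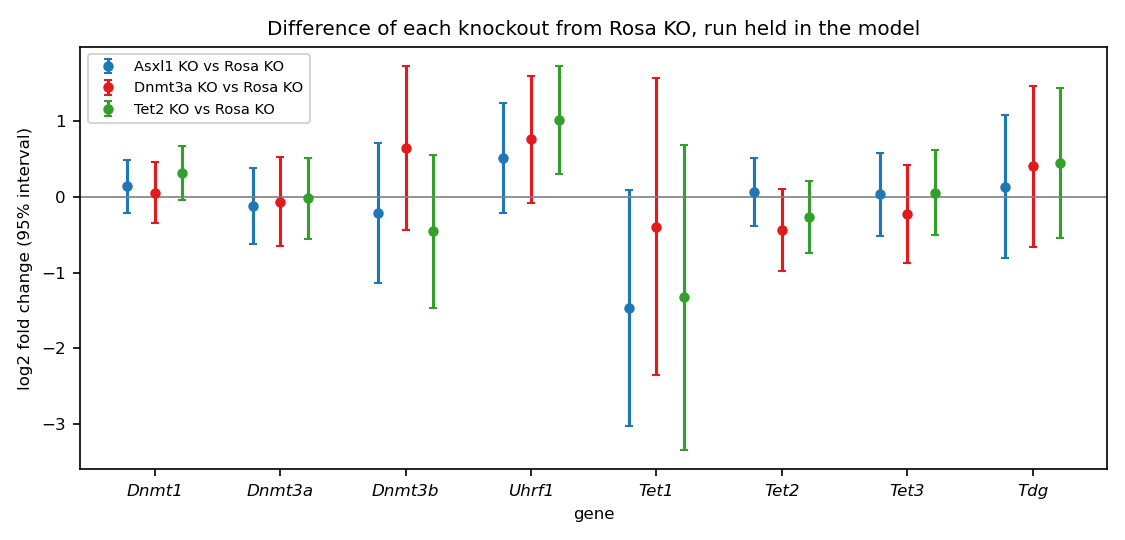
Log2 fold change of each gene in each knockout against Rosa KO (vertical axis) with its 95% interval, from the model with group and run over 17 libraries. The interval of Uhrf1 in Tet2 KO, from 0.31 to 1.73, is the 1 of these 24 that leaves out 0, and none passed the adjusted threshold.

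Over the comparisons of groups, 0 of the 8 genes were called between any pair. The share of all genes called was 1.64% in Asxl1 KO against Rosa KO, 0.209% in Dnmt3a KO against Rosa KO and 1.47% in Tet2 KO against Rosa KO. It was 0.353% in Asxl1 KO against Dnmt3a KO, 0.562% in Asxl1 KO against Tet2 KO and 0.0937% in Dnmt3a KO against Tet2 KO. A count of 0 among 8 genes is near such shares. A joint test for any difference between the 4 groups also called 0 of 8 (1.79% of all genes), with Uhrf1 lowest at an adjusted p of 0.337 by edgeR. At an unadjusted p under 0.05, Uhrf1 differed in Tet2 KO against Rosa KO, Tet2 in Asxl1 KO against Dnmt3a KO and Dnmt3b in Dnmt3a KO against Tet2 KO, each 1 member of 8, where 12.2%, 11% and 5.6% of all genes did. DESeq2 called 0 of 8 in every pair too. The 3 comparisons with Rosa KO share their control libraries. Dnmt3a KO shares a run with only 1 of these, Rosa KO 1. Without Rosa KO 1, the log2 fold change in Dnmt3a KO moved from 0.41 to 1.42 for Tdg and from −0.44 to −0.79 for Tet2, neither called.

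More of these genes passed between runs than between knockouts. With group in the model, 5 of 8 genes differed between any of the 3 runs, where 23.6% of all genes tested did: Dnmt1 (adjusted p = 0.000139), Tet3 (0.00344), Tet2 (0.0176), Uhrf1 (0.0435) and Dnmt3a (0.0480). Dnmt3b (0.786), Tet1 (0.616) and Tdg (0.903) did not pass. The calls of Dnmt1, Tet2 and Tet3 held in 17 of 17 fits that each left out 1 library. Those of Dnmt3a and Uhrf1 held in 7 and 6 of 17, with adjusted p up to 0.133 without Asxl1 KO 2 for Dnmt3a and up to 0.152 without Dnmt3a KO 3 for Uhrf1. With the proliferation mean as a further term 2 calls were left, Dnmt1 and Tet3.

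Dnmt1 was higher in run 1 than in run 3 by 1.09 ± 0.17 on the log2 scale (SE, adjusted p = 9.69e-05) and than in run 2 by 0.65 ± 0.17 (adjusted p = 0.0108). Its 4 libraries of run 1 had 353 to 429 CPM and its 8 libraries of run 3 had 153 to 254 CPM, with no overlap. Tet3 was lower in run 3 than in run 1 by 1.16 ± 0.26 (adjusted p = 0.00341) and than in run 2 by 0.94 ± 0.26 (adjusted p = 0.0168). Tet2 and Dnmt3a were higher in run 2 than in run 3, by 0.84 ± 0.22 (adjusted p = 0.0109) and 0.76 ± 0.24 (0.0348). Uhrf1 was higher in run 1 than in run 2 by 1.12 ± 0.35 (adjusted p = 0.0289). The members called between pairs of runs were thus 2 of 8 for run 1 against 3, 3 of 8 for run 2 against 3 and 2 of 8 for run 1 against 2, beside 13.5%, 12.1% and 15.5% of all genes.

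Sums of some marker lists differed between the runs as well. The 6 erythroid and platelet markers tested summed to between 466.5 and 2977 CPM in run 1, against 26.9 to 189 CPM in run 2 and 76.9 to 119 CPM in run 3. Between run 1 and run 3, Alas2 and Pf4 were not called (adjusted p = 0.653 and 0.924 by edgeR), while the others were. The 9 CD8 T cell markers summed to between 7471 and 12430 CPM in run 1, 4765 and 6141 CPM in run 2 and 5230 and 8735 CPM in run 3. Of them only Cd3e was called between run 1 and run 3 (log2 difference 1.23). Cd8a, for example, differed by 0.23 (adjusted p = 0.313 by edgeR). B cell markers summed to 1234 to 4261 CPM in run 1 and 1410 to 6281 CPM in run 3, with none called between these runs. Proliferation genes had medians of 4351, 2505 and 2814 CPM in the 3 runs. The part of the erythroid and platelet markers in the run differences was not tested, and the runs are filled by different groups.

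**Figure D3:**
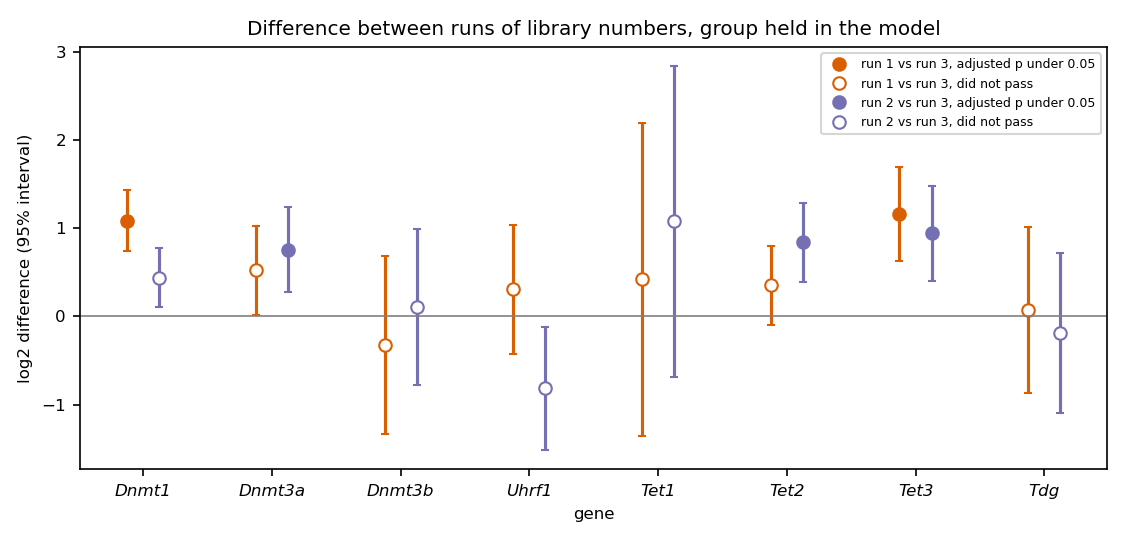
Log2 difference of each gene between runs of library numbers (vertical axis) with its 95% interval, with group held in the model; filled points passed the adjusted threshold. Dnmt1 and Tet3 were higher in run 1 than in run 3 by 1.09 and 1.16, and Dnmt3a, Tet2 and Tet3 were higher in run 2 than in run 3.

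Of the pathway's other genes, 3 were called in Tet2 KO against Rosa KO, from 2 lists. Among 11 tested cofactors of methylation, 2 rose in Tet2 KO (0.987% of all genes tested rose) and 0 fell, with a median log2 fold change of 0.43 beside −0.02 over all genes. Cdca7, which with the remodeller HELLS opens chromatin for methylation, rose by 1.59 ± 0.39 (SE, adjusted p = 0.0346). It had 10.1, 13.2, 24.7 and 25.2 CPM in Tet2 KO 1 to 4, and Rosa KO had 6.81 to 17.1 CPM (median 8.34). Pcna, the replication clamp that DNMT1 binds, rose by 0.63 ± 0.15 (adjusted p = 0.0295), with 250.2, 241, 597 and 515 CPM in Tet2 KO 1 to 4 and 246 to 430.4 CPM in Rosa KO. As with Uhrf1, the Tet2 KO libraries of run 3 were above every Rosa KO library for both genes, and those of run 2 were not.

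Among 9 readers of methylated DNA, 0 rose and 1 fell in Tet2 KO (0.483% of all genes fell), with a median of −0.20. That gene, Zbtb38, encodes a zinc finger protein that binds methylated CpG, and it fell by 0.78 ± 0.18 (SE, adjusted p = 0.0228). It had 146, 163, 127.5 and 113 CPM in Tet2 KO 1 to 4 and 215 to 239 CPM in Rosa KO, with no overlap. It was also higher in Asxl1 KO than in Tet2 KO by 0.93 ± 0.17 (adjusted p = 0.00598), and passed the joint test of the 4 groups (adjusted p = 0.0150). None of the 3 pathway genes was called with the proliferation mean as a term, without Rosa KO 4, without Tet2 KO 3 or without Tet2 KO 4. Pcna is itself in the proliferation list, so for Pcna that term holds part of its own level.

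The remaining lists had 0 calls in Tet2 KO, namely 21 cofactors of oxidation and repair (median −0.01), 16 genes of methyl donor supply (median 0.29) and 7 tested of 22 germline genes that methylation is known to silence. In Asxl1 KO and in Dnmt3a KO, 0 genes of the 5 lists rose or fell. The 22 germline genes summed to between 13.3 and 58.0 CPM per library. Up to 17 of them were at 0 in a library of Rosa KO or Dnmt3a KO, up to 18 in Tet2 KO and up to 19 in Asxl1 KO. Of the 7 tested germline genes, medians were −0.57 in Asxl1 KO, −0.16 in Dnmt3a KO and −1.69 in Tet2 KO, at mean levels of a few CPM or less except for Xlr4a. The 30 proliferation genes had medians of 0.65 in Asxl1 KO, 0.66 in Dnmt3a KO and 0.94 in Tet2 KO, with 0, 0 and 7 called higher. Pcna, named above as a cofactor of methylation, is among these 7. The called ones with the lowest adjusted p were the cyclins Ccnb2 (1.43 ± 0.28, adjusted p = 0.00851) and Ccna2 (1.29 ± 0.29, 0.0271) and the replication helicase subunits Mcm2 (0.97 ± 0.22, 0.0244) and Mcm3 (0.93 ± 0.22, 0.0295).

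Ogt, the glycosyltransferase that binds TET proteins, was outside the naming rule and was singled out after its values were seen, because it had the lowest adjusted p of the pathway genes in the joint test of the 3 runs (1.32e-09). It had 106 to 169.6 CPM in the 4 libraries of run 1, 649 to 921 CPM in the 5 of run 2 and 385 to 582 CPM in the 8 of run 3, with no overlap. The log2 difference of run 1 from run 3 was −1.84 ± 0.16 (SE, adjusted p = 4.18e-08) and of run 1 from run 2 −2.49 ± 0.16 (adjusted p = 2.62e-10). Against Rosa KO, Ogt had log2 fold changes of −0.10 in Asxl1 KO, 0.17 in Dnmt3a KO and −0.18 in Tet2 KO (adjusted p = 0.794, 0.854 and 0.712). Between runs, 6 of 11 cofactors of methylation, 6 of 21 cofactors of oxidation and repair, 1 of 9 readers, 2 of 16 genes of methyl donor supply and 14 of 30 proliferation genes were called, beside the 23.6% of all genes.

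Across the 17 libraries, 28 pairs of the 8 genes were compared. Of these 2 passed by Pearson's r of log2 CPM, Dnmt3a with Tet3 (r = 0.73, permutation p = 0.00074, adjusted p = 0.0207) and Dnmt1 with Tet3 (r = 0.68, permutation p = 0.00278, adjusted p = 0.0389). Spearman's rho was 0.63 (adjusted p = 0.112) and 0.73 (adjusted p = 0.0395). Without the 2 libraries farthest from the median of the first gene, r was 0.51 and 0.73, and within run 3 it was 0.63 and 0.21 (8 libraries). With group and run removed from the levels, neither pair passed (r = 0.50 and −0.01). There 2 other pairs fell under the threshold: Dnmt1 with Uhrf1 (r = 0.71, adjusted p = 0.0280) and Dnmt3a with Dnmt3b (r = 0.68, adjusted p = 0.0326). That permutation test treated the 17 values left after the removal as free, though the model leaves 11 residual degrees of freedom. Its p-values are therefore too low, and these 2 pairs are not taken as passing. Before that removal Dnmt1 and Uhrf1, the partners in maintenance, had r = 0.48 (adjusted p = 0.210), and 0.85 within run 3.

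Uhrf1 followed the proliferation genes from library to library. Over 17 libraries, r with the mean log2 CPM of the 30 genes was 0.92 (permutation p = 1e-05, the smallest that the resamples can give, adjusted over the 8 genes 8e-05) and rho was 0.87 (adjusted p = 0.00016). It was 0.88 without the 2 libraries farthest from the median and 0.89 within run 3. The resamples exchanged libraries across groups and runs, between which proliferation genes differed, so the permutation p allows for neither. An r with group and run removed was not computed for this mean. The 4 libraries with the highest proliferation mean, 6.37 to 6.50 log2 CPM, stood apart from the other 13, at 4.63 to 5.79. Among those 13 r was 0.79, and among the 6 libraries of run 3 without Tet2 KO it was 0.23, so the value within run 3 rests on Tet2 KO 3 and 4.

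Dnmt1 did not pass with the proliferation mean (r = 0.47, rho = 0.48, adjusted p = 0.163 and 0.109), nor did Tet2 (r = −0.59, rho = −0.59, adjusted p = 0.0552 and 0.0595). Within run 3 r was 0.74 for Dnmt1 and −0.83 for Tet2, and among the 13 libraries with lower proliferation means it was 0.38 and −0.23. Among the 6 libraries of run 3 without Tet2 KO it was 0.04 for Dnmt1, whose value within run 3 thus rests on Tet2 KO 3 and 4, and −0.77 for Tet2. The 5 other genes had r between −0.40 and 0.30. Within run 3 r was 0.80 for Tdg and −0.68 for Tet1, and between −0.32 and 0.27 for Dnmt3a, Dnmt3b and Tet3. With the B cell markers, r of the 8 genes lay between −0.37 and 0.12, and with the CD8 T cell markers between −0.38 and 0.26, none passing.

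**Figure D4:**
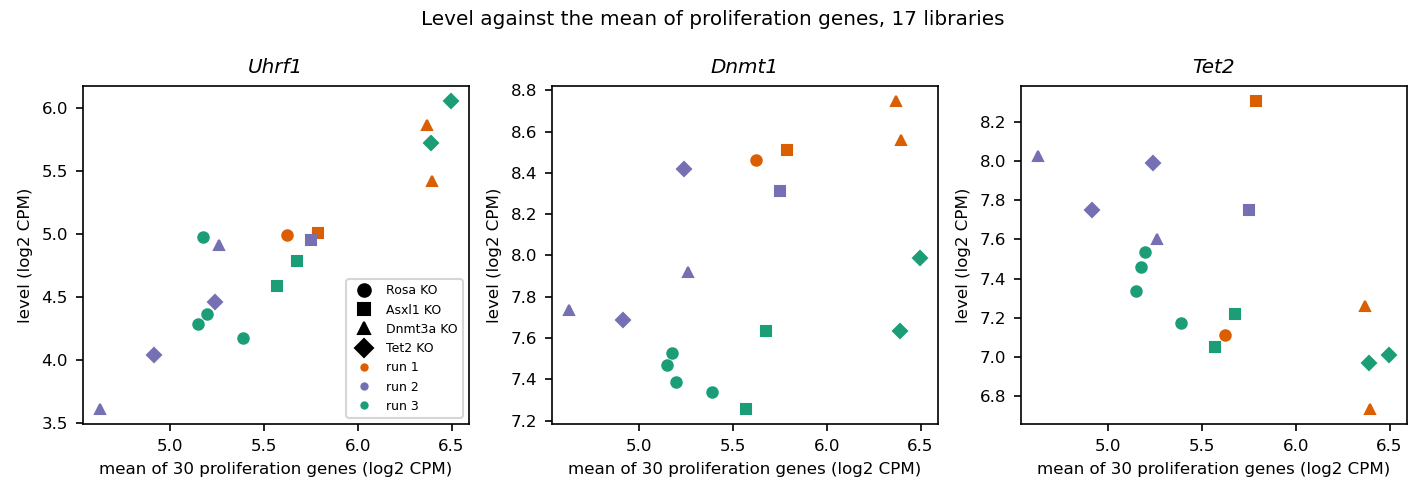
Level of Uhrf1, Dnmt1 and Tet2 in log2 CPM (vertical axes) against the mean log2 CPM of 30 proliferation genes (horizontal axes) in 17 libraries, with the group as symbol and the run as colour. Uhrf1 lay along a line (r = 0.92), while the run 1 libraries of Dnmt1 lay above the others at the same proliferation mean.

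The genes whose pattern over the 17 libraries was most like that of a member were taken, from 9610 genes whose mean level reached 5 CPM, by Pearson's r of log2 CPM, as a description with no test. For Uhrf1 they were Mcm3 (r = 0.91), a subunit of the replication helicase, Ccna2 (0.90), a cyclin of S phase and G2, Stmn1 (0.89), Hmgb2 (0.88) and Gclm (0.88). Mcm3 and Ccna2 are also in the proliferation list. For Dnmt1 they were Cit (0.90), Map4, Tln1, Phf2 and Myh9 (0.89), of which Map4, Tln1 and Myh9 encode cytoskeletal proteins. Tet3 was most like Abca2 (0.92), Noa1, Prrc2b and Crtc3, and Tet2 most like Ddhd1 (0.91), Emsy, Zmym5, Top3b and Rbm33. Dnmt3a was most like Erc1 (0.87), Lrp8, Marf1, Frrs1 and Med1, and Dnmt3b most like Susd6 (0.86), Zfp397, Agap3, Cep68 and Arap1. Tet1 was most like Crebrf (0.85), B4galt1, Rsbn1, Jmy and Tle4. For Tdg no gene passed 0.80, and the most alike were Rrp15 (0.79), Itpk1, Slc39a14, Armt1 and Ppp2r1b. The libraries share runs and depth, which such an r includes.

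Since Uhrf1 levels followed proliferation genes, the promoters of the 8 genes were searched on both strands for 4 words of the E2F binding motif, TTTCCCGC, TTTGGCGC, TTTCGCGC and TTTGCCGC. E2F factors drive genes of S phase. The windows ran from 250 bases before to 50 bases after each annotated start (RefSeq, GRCm38.p6), and a gene can have several. Of the 8 genes, 2 had a word in any window, Dnmt1 and Uhrf1, the maintenance pair. One window of each is shown, 5′ to 3′ on the gene's strand, with the words in capitals. The first lies at chr9:20952574-20952873 (minus strand) and the other at chr17:56304063-56304362 (plus strand).
Dnmt1: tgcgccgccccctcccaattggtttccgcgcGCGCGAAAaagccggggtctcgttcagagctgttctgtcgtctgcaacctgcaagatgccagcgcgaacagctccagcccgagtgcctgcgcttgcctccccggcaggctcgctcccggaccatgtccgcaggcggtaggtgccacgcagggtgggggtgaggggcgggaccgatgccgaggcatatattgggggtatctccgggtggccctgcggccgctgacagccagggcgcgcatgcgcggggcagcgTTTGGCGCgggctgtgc
Uhrf1: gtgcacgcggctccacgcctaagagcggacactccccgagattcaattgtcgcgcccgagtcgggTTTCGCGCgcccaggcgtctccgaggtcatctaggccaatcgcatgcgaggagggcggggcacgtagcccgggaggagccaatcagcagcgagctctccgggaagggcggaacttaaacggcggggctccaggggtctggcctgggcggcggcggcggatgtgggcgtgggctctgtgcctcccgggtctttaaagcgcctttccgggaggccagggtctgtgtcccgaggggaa

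The Dnmt1 window holds 2 words, TTTGGCGC and, read on the other strand, TTTCGCGC, and the Uhrf1 window holds 1, TTTCGCGC. Each window has 33 CpG dinucleotides, beside a median of 7 over all windows. High CpG numbers were not particular to them: windows of Tet2, Dnmt3a, Dnmt3b and Tdg with no such word had up to 57, 47, 30 and 26. Such a word was found in 744 of 32851 windows (2.26%) and in 704 of 27025 genes (2.60%), and in 7 of the 24 proliferation genes of the table. In the windows of the other 6 genes these letters were not present. A match is a description of the sequence and does not show that a factor binds there.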

How the data were processed

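Gene counts, deposited by the authors as 1 whole-number table per library, were used as given. STAR 2.5.3a, DESeq2 1.26.0 and the mm10 build appear in the submitters' processing notes. No source used here names the gene counter, the annotation or the use of strand. Per the labels' protocols, a stranded kit made libraries from total RNA. Against these protocols, a label gives the molecule as genomic DNA, and the tables were read as RNA counts.

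Counts were scaled by TMM, filtered with edgeR's filterByExpr (minimum count 10, total 15), which kept 13881 of 24594 genes and all 8 members, and tested in edgeR 4.0.16 (R 4.3.3) with the robust quasi-likelihood F test. The model held group and run over 17 libraries (11 residual degrees of freedom). P-values were adjusted by Benjamini-Hochberg over all genes tested, with a threshold of 0.05. CPM are TMM-scaled, and log2 CPM have a prior count of 2. Correlations used 100000 resamples (2-sided permutation tests), which exchanged libraries freely across groups and runs. Every interval covers the spread between these libraries. Gene positions came from RefSeq GRCm38.p6, to which 24570 identifiers matched. Exon lengths and gene strands came from GENCODE vM21.

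The genes, the lists and the tests were chosen with earlier results of these data known, so none is independent evidence. Members are all named. Pathway genes called against Rosa KO are named, up to 6 per list, as are up to 4 proliferation genes and, for each member, the 5 most alike genes, of which 1 is not reported here. The correlations with marker lists, the contrasts of pairs of runs, the split by proliferation mean, the promoter search, the covariate for CD8 T cell markers and the fit without both Dnmt3a KO libraries of run 1 were chosen after seeing the data. Other alternatives changed the scaling, filter, test, run term, covariates, libraries and prior count. The scripts were tested on simulated data. The replicate numbers of the labels were not used to pair libraries.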

Additional observations from a re-analysis of the deposited data

Results flagged for a closer look

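A total of 3 values lay far from the others of their group. Dnmt1 had 353 CPM in Rosa KO 1, with 162 to 185 CPM in the other 4 Rosa KO libraries, and Tdg had 17.9 CPM in the same library, with 7.19 to 8.93 CPM in the others. Rosa KO 1 is the only Rosa KO library of run 1, and the other 3 libraries of run 1 had 365 to 429 CPM of Dnmt1. For Tdg those 3 had 5.43 to 16.02 CPM. Dnmt3b had 3.88 CPM in Asxl1 KO 1, on 63 counts, with 17.9 to 19.4 CPM in the other 3 Asxl1 KO libraries. These 3 were found among 32 sets of values, 8 genes in 4 groups, and chance gives about 1 in 20.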

How the results depend on the processing

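None of the 48 values of a member between groups was called in the main model, and of 1416 values under alternatives 4 were called; 140 changed sign, none of them called. The members called in Tet2 KO against Rosa KO numbered 1 within run 3 and 0 to 1 without each library in turn (1 without Asxl1 KO 2, Uhrf1), and in Asxl1 KO against Dnmt3a KO 2 within run 1. The members that differed between runs, 5 in the main model, numbered 3 with the B cell markers or the CD8 T cell markers as a covariate, 2 with the proliferation genes as a covariate, 3 without both Dnmt3a KO libraries of run 1, and 3 to 5 without each library in turn. They numbered 3 without any 1 of Rosa KO 1, Asxl1 KO 4, Dnmt3a KO 2, Dnmt3a KO 3 or Tet2 KO 2, 3 or 4. Pathway genes called in Tet2 KO against Rosa KO, 3 in the main model, numbered 0 with no run term, 1 with only the libraries of the 2 groups, 0 with the proliferation covariate, 0 without both Dnmt3a KO libraries of run 1 and 0 to 4 without each library in turn (0 without Rosa KO 4, Tet2 KO 3 or Tet2 KO 4; 1 without Rosa KO 2, Rosa KO 5 or Dnmt3a KO 2). In Asxl1 KO against Rosa KO, 0 in the main model became 2 with no filter, 3 by DESeq2, 2 within run 1, 3 within run 3 and 0 to 1 without each library (1 without Rosa KO 4). The correlated pairs numbered 0 to 2 without each library (0 without Rosa KO 1, Rosa KO 3 or Asxl1 KO 4). All genes called in Asxl1 KO, Dnmt3a KO and Tet2 KO against Rosa KO numbered 227, 29 and 204 in the main model and 23, 19 and 23 with no run term. The cause of these moves was not tested.

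The replicate numbers do not pair the libraries: of 24 pairs with the same number 2 had a correlation of deviations above 0.1 (range −0.21 to 0.16), and 4 of 17 libraries correlated best with their own number. With the replicate block, 0 members differed between runs or groups, 0 pathway genes were called in Tet2 KO, and 51, 0 and 52 genes of all were called in the 3 comparisons with Rosa KO. Tet1, Tdg and Dnmt3b rest on the fewest counts, and their intervals are the widest.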
